A study of Mus musculus with 39 samples.

Results

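Promoter chromatin was examined at the 86 protein-coding ribosomal protein genes of the mouse, out of 21938 protein-coding genes annotated on chromosomes 1 to 19, X and Y of GRCm38. A gene was taken when its symbol was Rpl or Rps followed by a digit, or Rplp0, Rplp1, Rplp2 or Rpsa. This took 102 symbols, from which 10 Rps6k kinases and 6 symbols with -ps, the mark of a pseudogene, were left out. Of the 86 genes, 46 encode proteins of the large ribosomal subunit and 31 encode proteins of the small subunit. The remaining 9 were the paralogs Rpl3l, Rpl7l1, Rpl10l, Rpl22l1, Rpl36al, Rpl39l, Rps27l and Rps27rt, and Rps19bp1, which encodes a protein that binds a ribosomal protein and is not a ribosomal protein itself. Rps4l is annotated as a pseudogene and was therefore not a member, and the ribosomal protein encoded by Fau falls outside the symbol rule.

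The data came from CUT&Tag, in which a transposase tethered by an antibody to a histone mark inserts sequencing adapters nearby. Cultures of naive extra-embryonic endoderm (nEnd), derived from the mouse embryonic stem cell line OCT4-mCherry, were sorted by FACS on the OCT4-mCherry reporter and on antibody staining for PDGFRA-APC into 3 populations: OCT4-mCherry single positive (Oct4+), double positive (DP) and PDGFRA single positive (Pdgfra+). The cells received no treatment, and all 3 populations shared the line and the culture in RACL medium, which contains Activin A, CHIR99021 and LIF, so that each population stands for a gate of a single reporter line. Each of the marks H3K27ac, H3K4me1, H3K27me3 and H3K9me3 was profiled in 3 replicates per population, 36 libraries in all.

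Ribosomal proteins assemble with ribosomal RNA in the nucleolus into the large and small subunits of the cytoplasmic ribosome, and every growing cell needs nearly all of them in equal amounts. Their genes are transcribed at high levels in most tissues, typically from compact promoters rich in G and C, and the transcripts often begin within a run of pyrimidines (the TOP tract) through which mTOR signalling regulates translation. Several of the genes also carry small nucleolar RNAs in their introns, and the genome holds many processed pseudogenes copied from their messages. H3K27ac marks active promoters and enhancers, H3K4me1 marks enhancers and the flanks of active promoters, H3K27me3 is deposited by Polycomb repressive complex 2, and H3K9me3 marks heterochromatin.

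RefSeq promoter windows on GRCm38.p6, each from 250 bases before to 50 after a transcript start, were matched to 66 of the 86 genes by symbol, chromosome and strand. The RefSeq start lay within 100 bp of the annotated gene start for 51 of these 66. The 30 bases around the RefSeq start are shown for 9 genes whose values recur below, with the longest unbroken run of C and T in capitals, since this is where a TOP tract would be read.

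Rpl4 (chr9:64173372-64173401, plus strand): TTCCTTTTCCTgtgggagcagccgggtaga
Rpl19 (chr11:98026695-98026724, plus strand): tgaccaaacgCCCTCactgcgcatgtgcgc
Rpl11 (chr4:136053379-136053408, minus strand): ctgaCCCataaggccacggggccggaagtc
Rpl38 (chr11:114668565-114668594, plus strand): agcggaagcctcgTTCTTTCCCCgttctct
Rplp0 (chr5:115559452-115559481, plus strand): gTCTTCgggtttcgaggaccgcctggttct
Rps6 (chr4:86857353-86857382, minus strand): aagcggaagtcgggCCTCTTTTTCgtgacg
Rps4x (chrX:102189377-102189406, minus strand): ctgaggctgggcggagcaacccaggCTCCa
Rps27l (chr9:66946071-66946100, plus strand): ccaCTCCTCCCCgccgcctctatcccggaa
Rpl10l (chr12:66284387-66284416, minus strand): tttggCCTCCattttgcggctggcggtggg

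The run was 11 bases long in Rpl4, 10 in Rps6 and Rpl38, 9 in Rps27l and 3 in Rpl11. Across the 66 matched genes the median run was 6 bases, against 4 over all 16538 protein-coding genes with a window. A run of at least 8 bases was present in 25 of the 66 (37.9%) and in 11.7% of all windows. RefSeq starts can lie some bases from the start used in these cells, which were not mapped here.

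The 250 bases upstream of the start are shown for Rpl4, the gene called between Oct4+ and Pdgfra+ below, for Rpl19, with one of the strongest H3K27ac peaks among these genes, for Rplp0, with a peak in 4 of 9 libraries, and for Rpl10l, which carried H3K9me3 and no H3K27ac. Capitals mark matches to any of 5 short sequences searched on both strands, none of which contains another. Transcription factors of the ETS family bind a core that is often written CCGGAAG. The core of sites for the factor YY1 was searched as AAGATGG. The GC box, to which factors of the SP family bind, was searched as GGGCGG. For the TATA box of classical core promoters the letters were TATAAA. For the E-box, bound by MYC and related helix-loop-helix factors, the letters were CACGTG.

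Rpl4 (chr9:64173137-64173386, plus strand): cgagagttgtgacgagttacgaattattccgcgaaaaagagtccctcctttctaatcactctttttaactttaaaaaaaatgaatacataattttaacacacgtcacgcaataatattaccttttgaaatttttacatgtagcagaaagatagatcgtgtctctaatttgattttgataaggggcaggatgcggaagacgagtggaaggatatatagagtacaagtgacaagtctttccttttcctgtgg
Rpl19 (chr11:98026460-98026709, plus strand): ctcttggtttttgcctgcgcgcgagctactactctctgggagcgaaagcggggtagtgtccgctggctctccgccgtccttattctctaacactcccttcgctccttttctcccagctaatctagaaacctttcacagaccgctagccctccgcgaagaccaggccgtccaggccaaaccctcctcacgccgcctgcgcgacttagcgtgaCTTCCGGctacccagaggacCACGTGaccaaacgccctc
Rplp0 (chr5:115559217-115559466, plus strand): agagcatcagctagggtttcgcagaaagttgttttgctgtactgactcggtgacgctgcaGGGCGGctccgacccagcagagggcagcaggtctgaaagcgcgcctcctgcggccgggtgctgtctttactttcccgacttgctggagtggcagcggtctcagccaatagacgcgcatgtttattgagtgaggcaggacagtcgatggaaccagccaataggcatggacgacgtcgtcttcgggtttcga
Rpl10l (chr12:66284402-66284651, minus strand): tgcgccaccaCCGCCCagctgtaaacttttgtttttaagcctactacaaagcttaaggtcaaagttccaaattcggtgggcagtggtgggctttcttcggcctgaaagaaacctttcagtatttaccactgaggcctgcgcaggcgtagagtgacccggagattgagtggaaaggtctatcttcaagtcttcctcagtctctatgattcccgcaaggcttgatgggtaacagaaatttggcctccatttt

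In the windows of 300 bases, CCGGAAG was present in 25 of 66 ribosomal protein genes (37.9%) and in 12.3% of all windows. AAGATGG was present in 9 (13.6%, against 6.43%), GGGCGG in 40 (60.6%, against 48.2%), TATAAA in 6 (9.09%, against 12.9%) and CACGTG in 5 (7.58%, against 8.10%). The 25 genes with CCGGAAG had an H3K27ac promoter peak in a median of 8 of 9 libraries, and the 41 without it in a median of 6. For AAGATGG the order was the other way, with a median of 6 for the 9 genes with it and 7 for the 57 without, as it was for TATAAA, with 5.5 for 6 genes and 7 for 60. These medians carry no test. The upstream window of Rpl4 held none of the 5 sequences and was 35.6% G and C, against a median of 57.4% over the 66 genes and 56.0% over all. A match describes the letters of a window and is not evidence that a factor was bound.

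The number of listed peaks varied widely between libraries, from 3079 (DP replicate 2) to 65131 (Oct4+ replicate 2) for H3K27ac, and the depth of sequencing behind them is unknown. The smallest total signal of a listed H3K27ac peak varied as well, from 5460 (Oct4+ replicate 2) to 28044 (Pdgfra+ replicate 3). Presence of a peak is therefore given for each library beside the same share of all genes, and a promoter without a listed peak may still carry the mark. Cells were sorted in bulk, so that fewer cells with a mark and less of it per cell cannot be told apart. The gates were checked against marker genes. At the promoters of the Oct4+ markers Nanog and Sox2, H3K27ac was listed in 3 of 3 Oct4+ libraries and in 0 of 6 others. Pou5f1, which encodes OCT4, had it in 3 of 3 Oct4+, 1 of 3 DP and 1 of 3 Pdgfra+ libraries, Klf4 had it in 9 of 9 and Esrrb in none. Of the 8 endoderm markers, Foxa2 had it in 0 of 3 Oct4+ and in 6 of 6 other libraries. Gata6 and Col4a1 had it in 2 of 3 Oct4+ and 6 of 6 others, and Sox7 in 1 of 3 Oct4+ and 6 of 6 others. Pdgfra and Gata4 had it in 0 of 3 Oct4+, 2 of 3 DP and 3 of 3 Pdgfra+ libraries. Sox17 had it in 2 of 3 DP libraries and in 0 of 3 of both Oct4+ and Pdgfra+, and Dab2 in none.

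H3K27ac, taken here as a listed peak within 1 kb of the annotated start, was found at 34.9% to 94.2% of ribosomal protein promoters, and at fewer than 50% in DP replicate 2 and Pdgfra+ replicate 1. In Oct4+ replicates 1, 2 and 3, a peak was listed at 76, 81 and 57 of the 86 genes, beside 36.4%, 46.1% and 17.5% of all protein-coding genes. In DP the counts were 71, 30 and 76 of 86, beside 33.7%, 10.9% and 35.3%. In Pdgfra+ they were 40, 46 and 57 of 86, beside 16.1%, 23.1% and 18.6%. The share of ribosomal protein genes was higher than that of all genes in each of the 9 libraries, and the share in DP replicate 2 was the lowest. On average, 82.9% ± 14.7 (SD, n = 3) of the genes carried a peak in Oct4+, 68.6% ± 29.3 in DP and 55.4% ± 10.03 in Pdgfra+, against 33.3% ± 14.5, 26.6% ± 13.6 and 19.3% ± 3.55 of all genes. The populations overlapped in both shares, and the decline from Oct4+ to Pdgfra+ was shared by all genes and by the number of listed peaks. No p-value is given for these shares because the genes were chosen as a list.

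**Figure D1:**
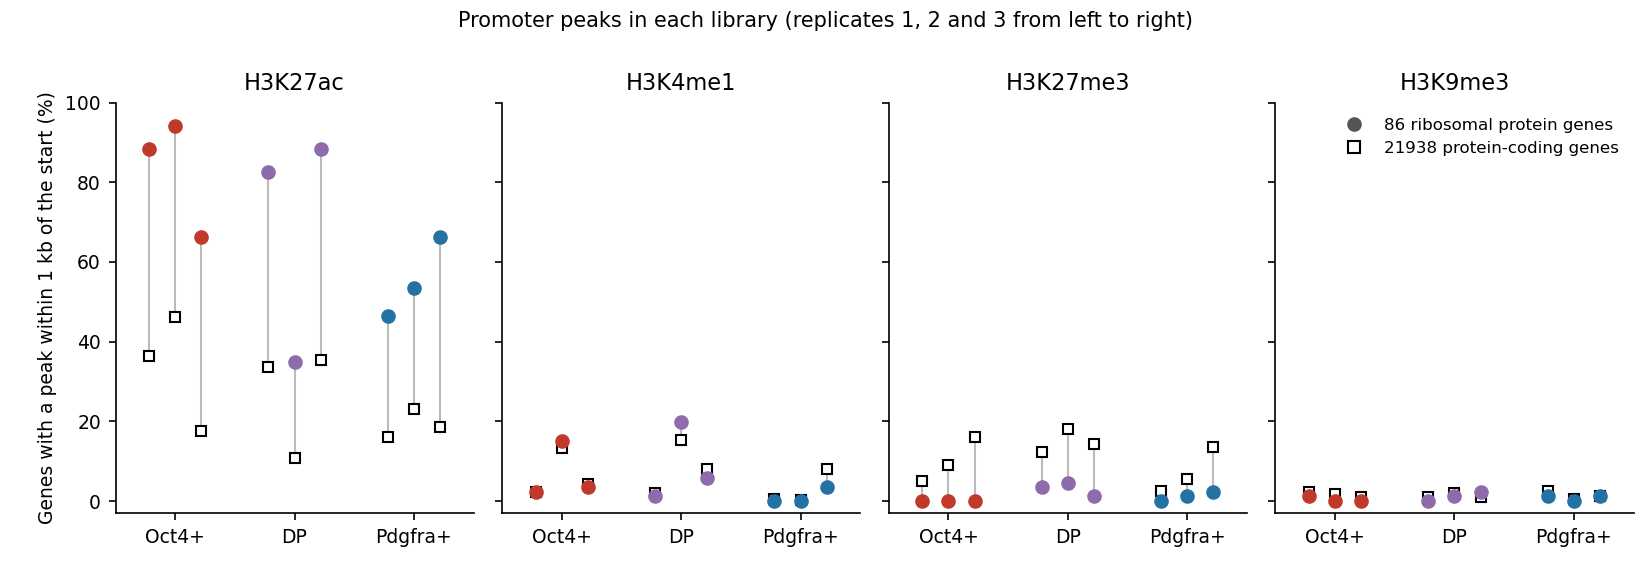
Share of genes with a listed peak within 1 kb of the annotated start (vertical axis, %) in each library, by mark (panels) and population (horizontal axis, replicates 1 to 3 from left to right), for the 86 ribosomal protein genes (filled circles) and all 21938 protein-coding genes (open squares), with a grey line joining the values of a library. For H3K27ac the circles lie above the squares in 9 of 9 libraries, from 34.9% to 94.2%, and for H3K27me3 they lie below them in 9 of 9.

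To set libraries of unequal length side by side, the 3079 H3K27ac peaks of highest total signal were taken from each. With this number, 31, 31 and 37 of the 86 genes had a promoter peak in Oct4+, 35, 30 and 37 in DP and 25, 25 and 43 in Pdgfra+. The shares averaged 38.4% ± 4.03 (SD, n = 3), 39.5% ± 4.19 and 36% ± 12.1, beside 7.06% ± 0.663, 11.1% ± 0.329 and 11.3% ± 0.923 of all genes. With equal numbers the means of the populations lay within 1 SD of each other, and the share stayed above that of all genes in each of the 9 libraries.

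The genes of related machineries were read in the same way, as lists described by their shares. With equal numbers of peaks, ribosomal protein genes reached 29.1% to 50% across the 9 libraries and the 64 translation factors (the Eif1 to Eif6 and Eef1 to Eef2 families) 26.6% to 46.9%. The 24 ribosome biogenesis genes, among them those of nucleolar proteins and RNA polymerase I subunits, reached 12.5% to 37.5%. The 78 mitochondrial ribosomal proteins reached 6.41% to 28.2%, and the 40 proteasome subunits 5% to 15%, which overlaps the 6.45% to 12.3% of all genes. The peaks were chosen by total signal, which grows with width, and equal numbers by maximum signal were not taken. Among genes with a peak, ranked as below, the proteasome median exceeded the ribosomal protein median in 7 of 9 libraries by maximum signal. It was equal in 1 and lower in 1, and by total signal it was lower in 9 of 9. The order of the lists may thus depend on the measure. With all listed peaks the proteasome list lay between 12.5% and 80.0% and the mitochondrial ribosome between 19.2% and 75.6%, each below the ribosomal protein genes in 9 of 9 libraries. The translation factors lay between 40.6% and 81.3% and the ribosome biogenesis genes between 33.3% and 91.7%. The ribosomal protein genes lay below the translation factors in 3 of 9 libraries and below the ribosome biogenesis genes in 2 of 9. Fau, which encodes a small-subunit protein fused to a ubiquitin-like domain, had a peak in 9 of 9 libraries.

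**Figure D2:**
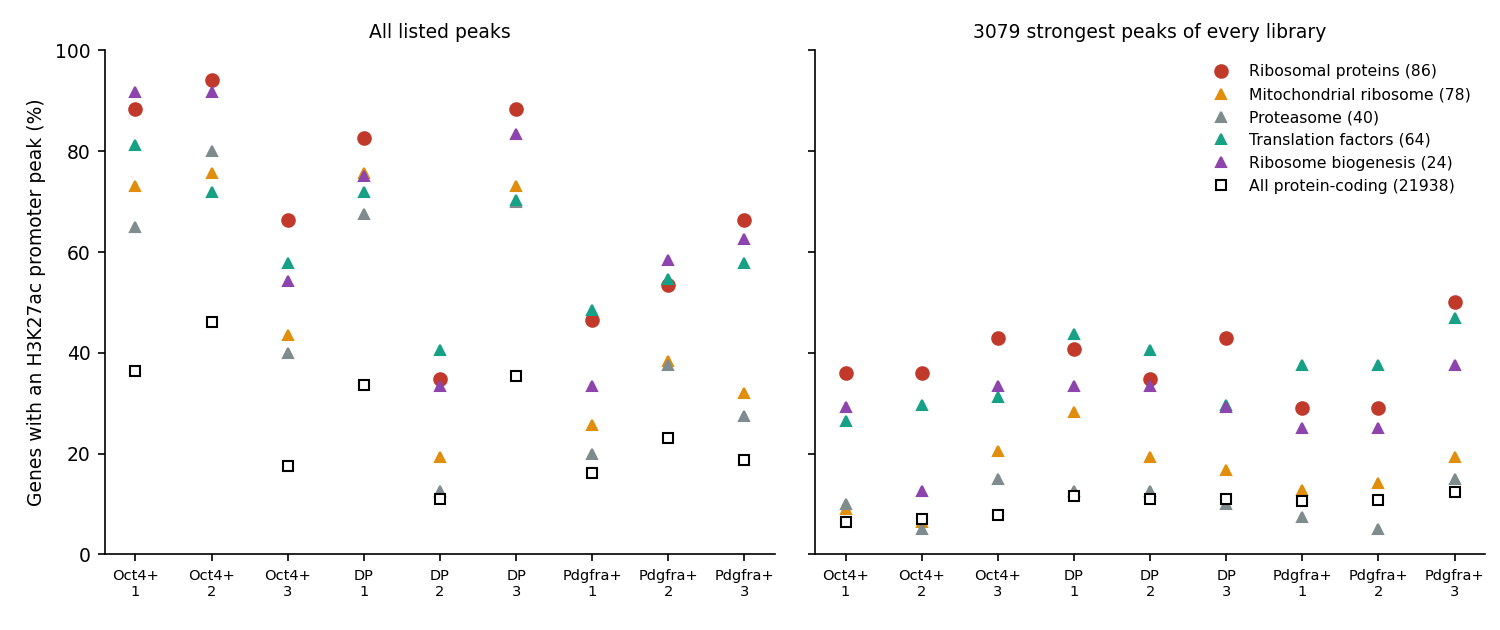
Share of genes with an H3K27ac promoter peak (vertical axis, %) in each of the 9 libraries (horizontal axis), with all listed peaks (left) and with the 3079 peaks of highest total signal in every library (right), for the ribosomal protein genes, 4 related lists and all protein-coding genes, with the number of genes in brackets. With equal numbers the ribosomal protein genes lie at 29.1% to 50% and the proteasome list at 5% to 15%, over the range of all genes. Total signal grows with peak width, and equal numbers by maximum signal were not taken.

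Across the 9 H3K27ac libraries, 20 of the 86 genes (23.3%) had a promoter peak in 9 of 9, against 6.66% of all genes. At least 5 libraries listed one for 70 (81.4%, against 24.5%) and in at least 1 for 81 (94.2%, against 54.2%). In at least 2 of 3 libraries of every population there were 46 genes (53.5%, against 16.6% of all), and in at least 2 of 3 of Oct4+ and DP but not of Pdgfra+ there were 22 (25.6%, against 8.51%). A further 9 genes reached 2 of 3 in Oct4+ alone (10.5%, against 7.84%), 1 in DP alone (1.16%, against 3.84%), 1 in DP and Pdgfra+ (1.16%, against 1.85%) and 7 in no population (8.14%, against 61.2%).

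No ribosomal protein gene had an H3K27ac peak in 3 of 3 libraries of a population and 0 of 6 of the others. Over the whole annotation, 0.871% of all genes had this pattern in Oct4+, 0.0137% in DP and 0 genes in Pdgfra+, so that a count of 0 among 86 genes is near the background. The opposite pattern, 0 of 3 in a population and 6 of 6 in the others, also held for 0 of the 86 genes, beside 0.155% of all genes for Oct4+, 0% for DP and 0.0456% for Pdgfra+.

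**Figure D3:**
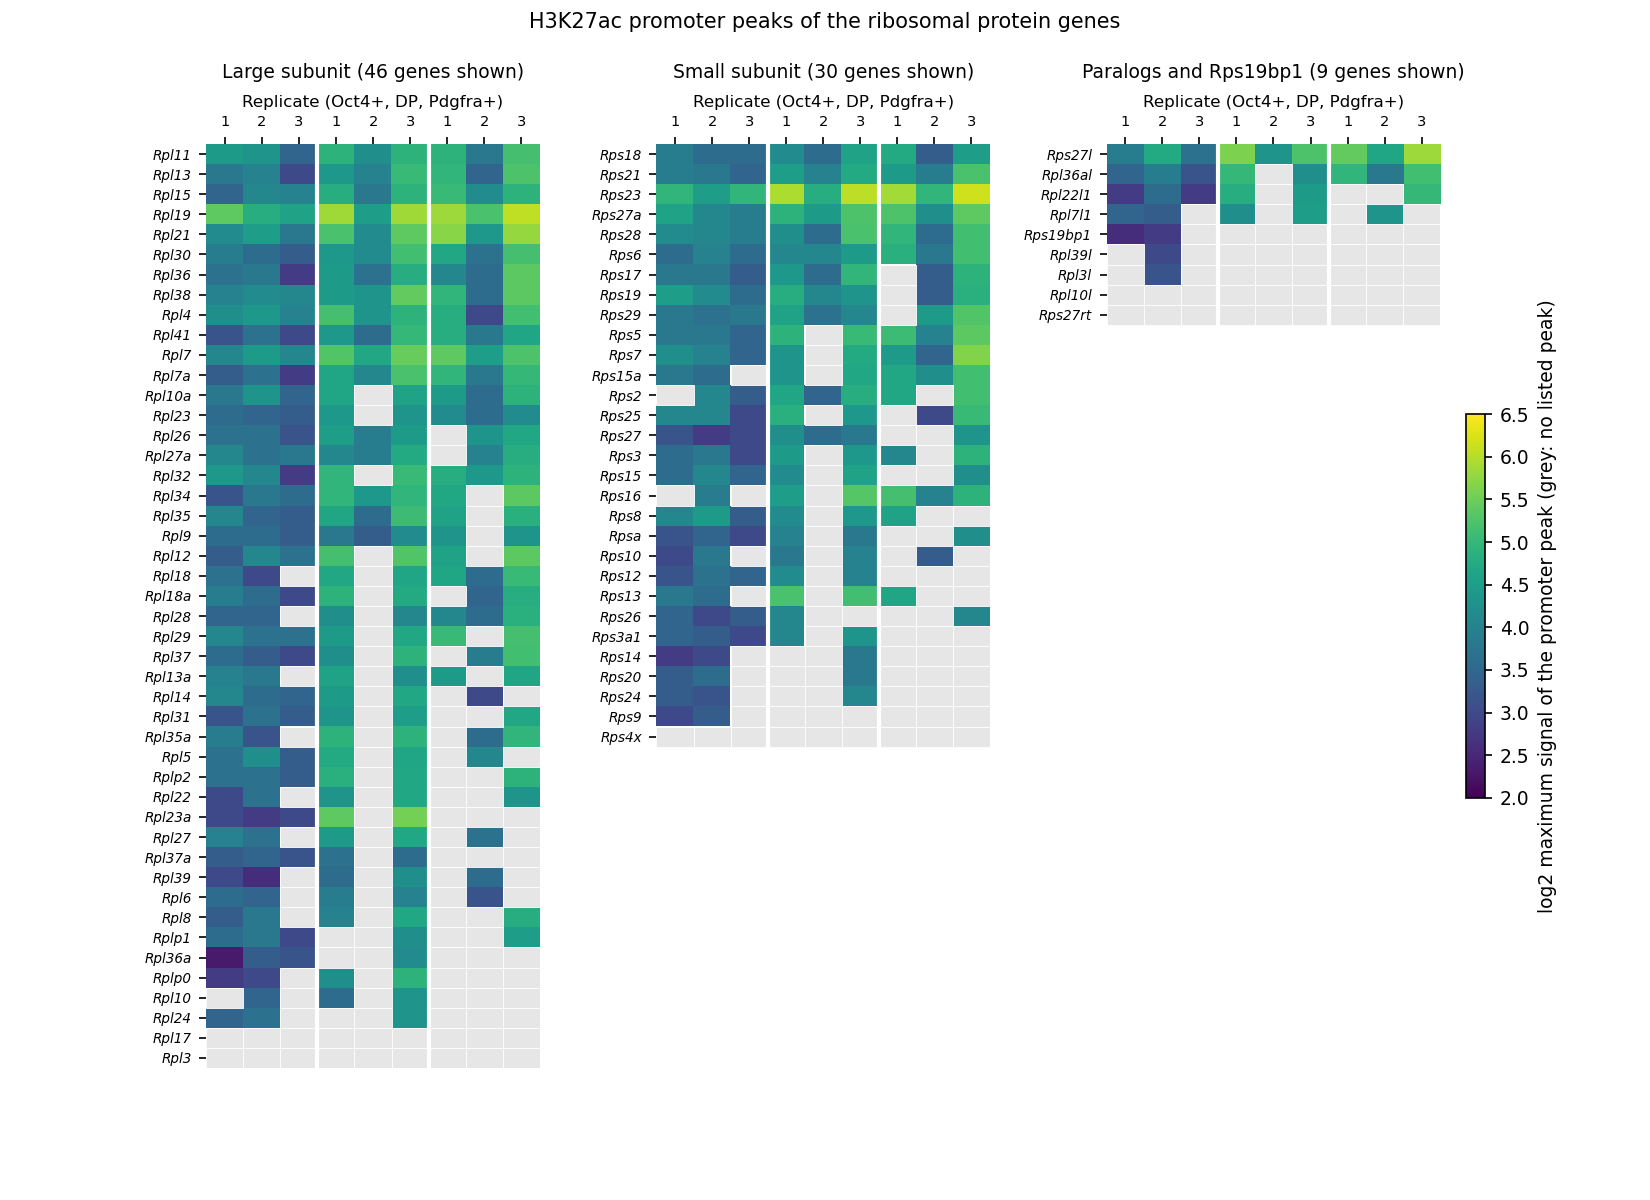
Maximum signal of the H3K27ac promoter peak on a log2 scale (colour) for 85 of the 86 genes (rows, in order of the number of libraries with a peak) in replicates 1 to 3 of Oct4+, DP and Pdgfra+ (columns, from left to right), with grey for no listed peak. The upper rows of each panel, among them Rpl19, Rps23 and Rps27l, are filled in 9 of 9 libraries, the grey cells are most frequent in DP replicate 2 and in Pdgfra+, and the rows of Rpl3, Rpl17, Rps4x, Rpl10l and Rps27rt are grey throughout.

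Among large-subunit genes, H3K27ac was listed in 9 of 9 libraries at Rpl4, Rpl7, Rpl7a, Rpl11, Rpl13, Rpl15, Rpl19, Rpl21, Rpl30, Rpl36, Rpl38 and Rpl41. Rpl11, which with Rpl5 and 5S RNA forms the particle that restrains MDM2, had maximum signals of 22, 20 and 11 in Oct4+, 30, 19 and 30 in DP and 30, 14 and 36 in Pdgfra+, in units of overlapping fragments. Rpl5 itself had a peak in 6 libraries, with 13, 19 and 10 in Oct4+, 27 and 25 in DP replicates 1 and 3 and 17 in Pdgfra+ replicate 2. Rpl38, needed for the translation of a subset of Hox messages during patterning of the mouse axis, had 16, 18 and 17 in Oct4+, 22, 20 and 43 in DP and 31, 12 and 41 in Pdgfra+. For Rpl11 the values of the 3 populations overlapped. For Rpl38 the Oct4+ values lay below the DP values and within the range of Pdgfra+, before any adjustment for the level of each library.

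The stalk proteins recruit the GTPases of translation to the large subunit. Rplp0, which anchors the stalk, had a peak in 4 libraries, with maximum signals of 7 and 8 in Oct4+ replicates 1 and 2, 19 and 30 in DP replicates 1 and 3, and no listed peak in Pdgfra+. Rplp1 had one in 5 libraries, with 12, 14 and 8 in Oct4+, 19 in DP replicate 3 and 23 in Pdgfra+ replicate 3. Rplp2 had one in 6. These 3 genes lay below the median of 7 libraries over the 77 core genes. The widely used reference transcript Rplp0 (chr5:115559467-115563727, plus strand) was among the 22 genes with a peak in at least 2 of 3 libraries of Oct4+ and of DP but not of Pdgfra+. Its peaks had total signals of 7374 and 8278 in Oct4+ and 17462 and 56510 in DP. The smallest total signal of any listed peak was 27115, 8736 and 28044 in Pdgfra+ replicates 1, 2 and 3. Most of the Rplp0 peaks were smaller than any listed in Pdgfra+ replicates 1 and 3, so the missing listing does not show a loss of the mark.

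Among small-subunit genes, those with a peak in 9 of 9 libraries included Rps6, Rps18, Rps21, Rps23, Rps27a and Rps28. Rps6, the target of S6 kinases downstream of mTOR, had maximum signals of 12, 16 and 12 in Oct4+, 17, 17 and 22 in DP and 29, 14 and 35 in Pdgfra+. Rps19, which is often mutated in Diamond-Blackfan anaemia, had a peak in 8, with 23, 18 and 12 in Oct4+, 28, 17 and 20 in DP and 10 and 29 in Pdgfra+ replicates 2 and 3. Rpsa, also known as a laminin receptor, had one in 6, with 9, 11 and 8 in Oct4+, 16 and 14 in DP replicates 1 and 3 and 19 in Pdgfra+ replicate 3. Rps9, a protein of the small-subunit body, was listed in Oct4+ replicates 1 and 2 alone, with 8 and 10, and these were the 2 longest lists.

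The paralogs split into those with and those without the mark. Rps27l, a p53-inducible paralog of Rps27, had a peak in 9 of 9 libraries, with 15, 27 and 13 in Oct4+, 49, 20 and 38 in DP and 43, 25 and 57 in Pdgfra+. Rps27 had one in 7 of 9. Rpl36al was listed in 8 libraries, Rpl22l1 in 6 and Rpl7l1 in 5. Rpl3l, a paralog of striated muscle, and Rpl39l, a paralog of the male germline, were each listed in Oct4+ replicate 2 alone, with maximum signals of 9 and 8, and that library had the longest list. Rps19bp1 was listed in Oct4+ replicates 1 and 2, with 6 and 7. The intronless copies Rpl10l and Rps27rt had no H3K27ac peak in any library.

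Of the core genes, Rpl3, Rpl17 and Rps4x had no H3K27ac peak within 1 kb of the annotated start in any library. Rpl3, which lies near the peptidyl transferase centre, and Rpl17, at the exit of the peptide tunnel, are annotated with further transcript starts up to 11387 bp and 1919 bp from the first. When the start of every protein-coding transcript was searched, Rpl3 had a peak in 6 of 9 libraries and Rpl17 in 8. In the same search Rps14 rose from 3 to 9 libraries, Rpl13a from 6 to 9, Rps2 from 7 to 9 and Rps19 from 8 to 9, and 24 genes (27.9%) had a peak in 9 of 9, against 7.29% of all. Rps4x (chrX:102184941-102189394, minus strand), an X-linked small-subunit gene, had no peak in either search.

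The 4 X-linked genes were all below the median of 7 libraries over the 77 core genes. Rpl39 had H3K27ac in 5 libraries, Rpl36a in 4, Rpl10 in 3 and Rps4x in 0. Rpl10, which joins the large subunit in the cytoplasm as one of the last proteins, had maximum signals of 11 in Oct4+ replicate 2 and of 12 and 20 in DP replicates 1 and 3. Chromosome X as a whole had few listed promoter peaks, at 1.16% to 12.7% of its 948 protein-coding genes in the 9 libraries. In Oct4+ replicate 2, the longest list, 12.7% of X-linked and 47.6% of autosomal genes had one. The part of the chromosome in the low counts of these 4 genes was not tested.

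Where a promoter peak was listed, its height was ranked within its library among all genes with a promoter peak. The median percentile of the ribosomal protein genes by maximum signal was 63.3, 67.7 and 51.8 in Oct4+, 44.9, 50.6 and 51.8 in DP and 38.8, 47.1 and 46.4 in Pdgfra+. By total signal, which grows with width, it was 72.9, 80.8 and 60.7, then 65.3, 36.7 and 67.3, then 43.2, 58.0 and 59.8. The genes thus stood near the middle of marked promoters by height and above it by total signal in 7 of 9 libraries. By maximum signal, the median of the translation factors with a peak lay above that of the ribosomal protein genes in 8 of 9 libraries, and that of the mitochondrial ribosomal proteins lay above it in 5, was equal in 2 and lay below in 2. By total signal the translation factors lay above in 5 of 9 and the mitochondrial ribosomal proteins in 1 of 9. The proteasome subunits lay above in 7 of 9 libraries by maximum and in 0 of 9 by total signal, and the ribosome biogenesis genes in 3 and 2 of 9.

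Heights differed widely between individual genes. Among the 20 genes with a peak in 9 of 9 libraries, Rps23, a protein of the decoding centre, had the highest mean percentile by maximum signal at 99.1 (lowest library 97.3, highest 99.9), followed by Rpl19 at 98.4, Rpl7 at 90.4, Rpl21 at 89.7 and Rps27l at 89.5. Rps23 (chr13:90922958-90924950, plus strand) had maximum signals of 31, 23 and 31 in Oct4+, 62, 28 and 66 in DP and 59, 31 and 72 in Pdgfra+. Rpl19 (chr11:98026710-98030492, plus strand) had 42, 28 and 24, then 58, 23 and 58, then 57, 37 and 67.

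Low mean percentiles among the 20 were those of Rps18 at 39.3, Rpl41 at 39.9, Rpl36 at 43.6 and Rpl7a at 52.7. Rps18 ranged from 12.02 to 75.8 and Rpl36 from 2.59 to 78.5 between libraries, so that the order among these genes does not hold within their spread. Rpl41 encodes one of the smallest eukaryotic proteins and Rpl7a hosts small nucleolar RNAs. The maximum did not always lie at the gene's own start. At Rpl41 (chr10:128548114-128549305, minus strand) it lay 1482 to 2130 bp downstream in 9 of 9 libraries, past the end of the gene. The height given for Rpl41 is therefore that of a site beyond the gene. At Rpl36 the maximum lay within 1 kb in 5 of 9, between -3746 and 1539 bp of the start, with negative values upstream. For the 20 genes together, 159 of 180 maxima (88.3%) lay within 1 kb of the start.

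The peaks of ribosomal protein genes reached further into the gene than those of other genes. Their median width ranged from 2428 to 5487 bp over the 9 libraries and was above that of all promoter peaks in 8 of 9. The median peak ended 1548 to 3345 bp downstream of the start, further than the 1263 to 2445 bp of all genes and further within each of the 9 libraries, whereas the upstream reach was longer in 4 of 9. The maximum lay downstream of the start in 72.8% to 87.5% of ribosomal protein genes and in 64.6% to 69.9% of all. These genes are short, with a median length of 3.33 kb against 17.4 kb for all, so that many of the peaks spanned much of the gene.

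**Figure D4:**
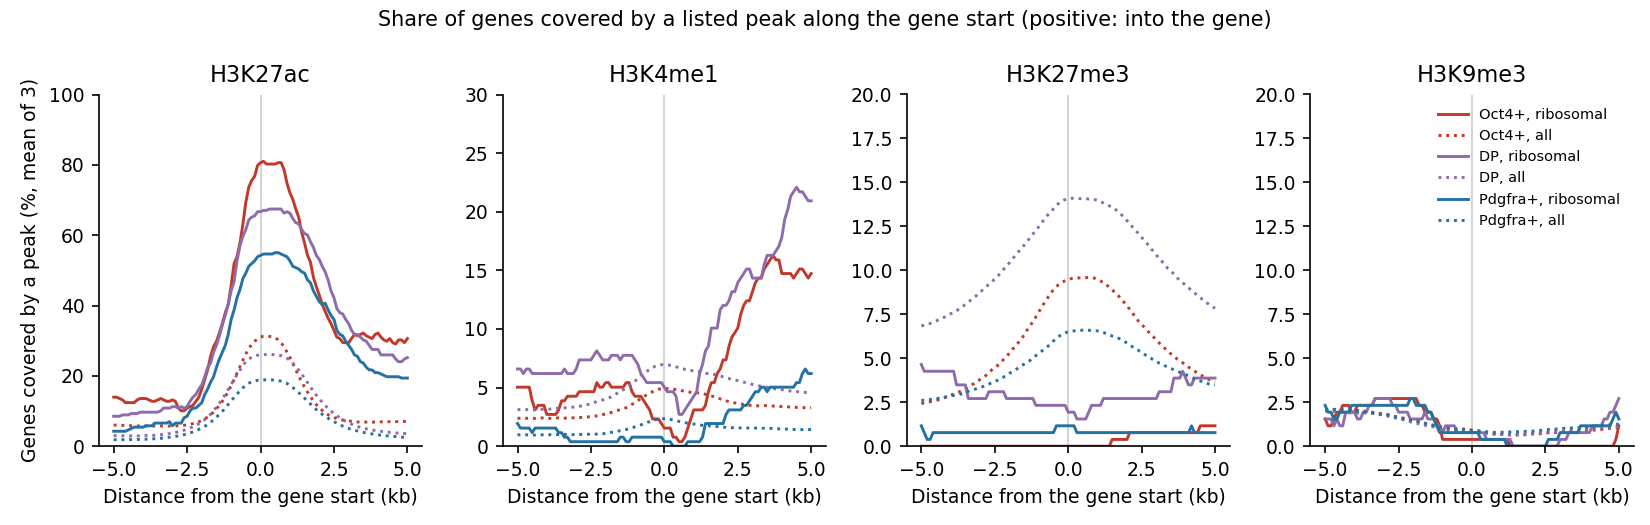
Share of genes covered by a listed peak (vertical axis, %, mean of 3 libraries, with a different range in each panel) against the distance from the annotated start (horizontal axis, kb, positive into the gene), for ribosomal protein genes (solid) and all protein-coding genes (dotted) by population (colour) and mark (panel). H3K27ac peaks just inside the start at 81.0%, 67.4% and 55.0% of ribosomal protein genes in Oct4+, DP and Pdgfra+, while H3K4me1 is low at the start and reaches 14.7%, 20.9% and 6.20% at 5 kb.

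H3K4me1 was scarce at the start itself. Within 1 kb it was listed at 2, 13 and 3 of the 86 genes in Oct4+, beside 2.15%, 13.3% and 4.28% of all genes. In DP it was listed at 1, 17 and 5, beside 2.10%, 15.4% and 8.02%, and in Pdgfra+ at 0, 0 and 3, beside 0.588%, 0.324% and 7.95%. The share of ribosomal protein genes lay above that of all genes in 3 of 9 libraries and below it in 6. It was 19.8% against 15.4% in DP replicate 2 and 3.49% against 7.95% in Pdgfra+ replicate 3. A peak was listed in 2 or more libraries for 8 genes (9.30%, against 13.6% of all). They were Rpl36 in 6 libraries, Rpl14 in 5, Rpl18 and Rpl32 in 4, and Rps16, Rps21, Rps27 and Rpl28 in 2 each.

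Further into the gene the order turned. At 5 kb downstream of the start, 14.7% of ribosomal protein genes in Oct4+, 20.9% in DP and 6.20% in Pdgfra+ were covered by an H3K4me1 peak, against 3.29%, 4.57% and 1.43% of all genes. At the start itself the shares were 1.55%, 5.04% and 0.388%, against 4.94%, 6.96% and 2.34%. Since 68 of the 86 genes (79.1%) are no longer than 5 kb, against 18.9% of all, this distance lay beyond the end of most of them. Averaged over 5 kb, coverage of the ribosomal protein genes was 9.19%, 12.6% and 3.06% downstream of the start and 4.12%, 6.68% and 0.851% upstream. All of these shares are means of 3 libraries with H3K4me1 lists of unequal length. The lists held 4127, 16057 and 7443 peaks in Oct4+, 4371, 11874 and 11334 in DP and 1723, 1074 and 10620 in Pdgfra+. Single libraries are not given here, so a mean may rest largely on 1 of them.

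H3K27me3 was listed within 1 kb of the start at 0 of the 86 genes in each of the 3 Oct4+ libraries, at 3, 4 and 1 in DP and at 0, 1 and 2 in Pdgfra+. Over all genes the shares were 4.94%, 9.02% and 16.1%, then 12.2%, 18.1% and 14.3%, then 2.43%, 5.48% and 13.6%. No peak was listed in any library at 82 of the 86 genes (95.3%, against 77.2% of all). The 4 exceptions were Rps14, Rps27rt, Rps3a1 and Rpl3, and they accounted for 11 listed peaks.

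At Rps14, a small-subunit gene of the platform, the mark was listed in 3 of 3 DP and 2 of 3 Pdgfra+ libraries, in domains of 4897 to 60873 bp. These covered the annotated start, from which other transcript starts of Rps14 lie up to 29141 bp away, and with every transcript start searched the same gene had H3K27ac in 9 of 9. At Rps27rt (chr9:114982366-114982739, minus strand), the peaks of DP replicates 1 and 2 began 765 and 613 bp downstream and reached past 7 kb, so that they lay beyond the end of this short copy. The peak of Pdgfra+ replicate 3 ran from -411 to 7942 bp and covered the whole gene. At Rps3a1 the domains of DP replicates 1 and 2 ran from -10373 to 261 bp and from -10378 to -81 bp of the start, with negative values upstream. Rpl3 had a peak in DP replicate 2.

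H3K9me3 was absent from the lists at 84 of the 86 genes (97.7%), near the 94.4% of all genes without it. Rpl10l (chr12:66283379-66284401, minus strand), an intronless copy of Rpl10 known for expression in spermatocytes, had a peak in Oct4+ replicate 1, DP replicates 2 and 3 and Pdgfra+ replicates 1 and 3. The maximum signals were 5, then 6 and 8, then 9 and 8, each lying 104 to 343 bp upstream of the start, in the bases printed above or just beyond them. Rpl23 had a peak in DP replicate 3 that ended 584 bp upstream of its start. Over all genes the share with an H3K9me3 promoter peak was 2.26%, 1.78% and 0.966% in Oct4+, 1.07%, 2.12% and 1.04% in DP and 2.61%, 0.574% and 1.28% in Pdgfra+.

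The 283 annotated pseudogenes with symbols of Rpl or Rps and -ps were read in the same way. An H3K9me3 peak within 1 kb was listed in at least 1 library for 39 (13.8%, against 5.59% of protein-coding genes). In at least 5 it was listed for 11 (3.89%, against 0.880%), among them Rpl19-ps1, Rpl7a-ps7 and Rpl10-ps2. No share over other pseudogenes was computed, so these counts have no matched background. H3K27ac was listed in at least 1 library for 42 (14.8%, against 54.2% of protein-coding genes). In at least 5 it was listed for Rpl30-ps3, Rpl30-ps5 and Rps29-ps, against 70 of the 86 coding genes. How fragments matching several copies were placed is not known here, so signal over near-identical copies is uncertain.

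Another protein-coding gene started within 1 kb of 16 of the 86 genes (18.6%, against 12.6% of all), and in each case it was divergent. The pairs included Rps28 with Ndufa7 at 10 bp, Rps27 with Rab13 at 44 bp, Rpl7a with Med22 at 87 bp, Rps18 with Vps52 at 189 bp and Rpl4 with Zwilch at 271 bp. The 16 genes had an H3K27ac peak in a median of 8 libraries and the other 70 in a median of 6. A promoter peak at these 16 genes cannot be told apart from that of the neighbour.

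Signal was compared between populations at promoters with a peak in 9 of 9 libraries, 1460 genes of which 20 are ribosomal protein genes. The log2 of the maximum signal was centred on the median gene of each library and tested with limma. These genes passed the filter by being listed everywhere, so they describe the steadily marked members and not all 86. Between Oct4+ and DP, 0 of the 20 were called, beside 3.84% of all genes tested (56 of 1460, with 1.1% higher and 2.74% lower in Oct4+). At an unadjusted p under 0.05 there were 5 of 20, beside 16.8%. The median difference was 0.18 for the 20 genes and 0.01 for all, and 13 of 20 were positive, that is, higher in Oct4+. Between DP and Pdgfra+, 0 of the 20 were called, beside 0.137% of all (2 of 1460), with 1 of 20 at an unadjusted p under 0.05, beside 3.15%.

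Between Oct4+ and Pdgfra+, 1 of the 20 was called, beside 4.93% of all genes tested (72 of 1460, with 1.16% higher and 3.77% lower in Oct4+), which is near the background. It was Rpl4 (chr9:64173375-64178666, plus strand), a large-subunit protein with an extension that lines the peptide tunnel. Its maximum signals were 19, 21 and 16 in Oct4+, 36, 20 and 30 in DP and 28, 8 and 35 in Pdgfra+. Before centring, the Oct4+ values lay within the Pdgfra+ range, while the median of the 1460 genes was 16, 17 and 11 in Oct4+ and 33, 16 and 38 in Pdgfra+. Relative to these medians Rpl4 was higher in Oct4+ by 0.82 on the log2 scale (95% interval 0.39 to 1.25, adjusted p = 0.0161 in limma). The difference was not called without replicate 1 (smallest adjusted p among the ribosomal protein genes 0.125 in limma), without replicate 2, with mean signal, with total signal or without centring. The maximum lay upstream of the Rpl4 start in 7 of 9 libraries, at 450 to 684 bp, on the side of Zwilch, a gene of the kinetochore.

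The other 19 genes were not called in this comparison. At an unadjusted p under 0.05 in limma there were 2 of the 20, beside 17.5% of all genes tested. Rps28 differed by 0.41 (95% interval -0.01 to 0.83, adjusted p = 0.298 in limma) and Rps18 by 0.41 (-0.03 to 0.85), each with the higher mean in Oct4+. Rpl7a differed by -0.40, with the higher value in Pdgfra+. Rps23 differed by 0.06 (95% interval -0.31 to 0.43) and Rpl19 by 0.14 (-0.22 to 0.50), so that at these 2 strong promoters a difference of more than 0.50 lay outside the interval. The median interval of the 20 genes spanned 0.42 to either side, and some differences larger than this were not called after adjustment. Their median residual SD was 0.25 on the log2 scale, against 0.24 for all genes.

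**Figure D5:**
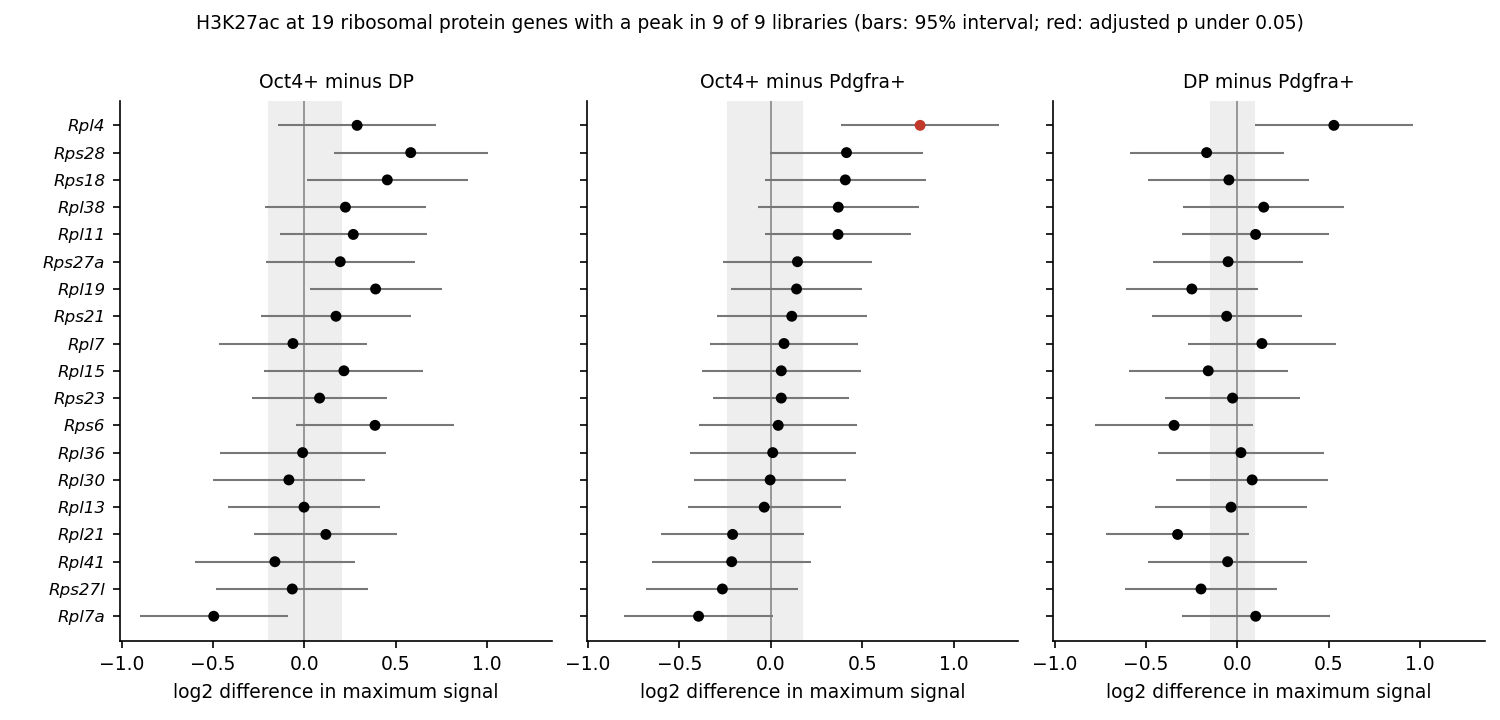
Difference in log2 maximum H3K27ac signal (horizontal axis, after centring each library on its median gene) for 19 of the 20 ribosomal protein genes with a peak in 9 of 9 libraries (rows), in each of 3 comparisons (panels), with the 95% interval as a bar and the middle 50% of all 1460 genes in grey. Rpl4 between Oct4+ and Pdgfra+, at 0.82, is the point in red (adjusted p under 0.05), and the remaining points are black.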

How the data were processed

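Per the submitters' processing notes, the tools were bcl2fastq 2.19.1, Bowtie2, SAMtools 1.12, bedtools 2.26.0, SEACR and deepTools, and the build was mm10, read here with GENCODE vM21 on GRCm38. For each library the authors deposited stringent SEACR peaks called against IgG. The deposited total and maximum signal of each peak was made by the authors from bedtools coverage of paired-end fragments, with no scaling factor given. Read depth and SEACR's normalization setting are unknown here. The 3 IgG samples were not used here.

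A promoter peak was any listed peak within 1 kb of the annotated gene start. For limma 3.58.1 (R 4.3.3), log2 maximum signal of the highest promoter peak was centred on the median gene of each library and fitted with a trend, Benjamini-Hochberg threshold 0.05, over genes with a peak in 9 of 9 H3K27ac libraries. The fit was also run on simulated independent normal values, which lacked the whole-number signals and the peak listing of these libraries. That run cannot show how the fit handles those features. The paper describes its H3K27ac and H3K4me1 tracks as made from 3 biological replicates. The labels do not say whether these came from separate cultures. The p-values therefore measure only the spread between these libraries, part of which may be technical. Python 3.11.15, NumPy 2.4.6, pandas 2.3.3 and Matplotlib 3.10.9 were used for the rest.

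The genes, lists and tests were chosen with earlier results of these data known. Genes were named by rule: no H3K27ac in 9 libraries, H3K27me3 or H3K9me3 in at least 2 of 3 libraries of a population, a peak of 1 population, a limma call, the 5 highest and 5 lowest by percentile, and a fixed list that included Rplp0, Rpsa, Rps6, Rpl5, Rpl11, Rps19 and the paralogs. Rpl13a, Rps2, Rplp2, Rps27, Rps28 and further genes beside a count were named after their values were seen. Some genes that the rule names are not reported here, and their values stay in the counts. Replicate numbers occur in every population, but the labels do not say that they pair the libraries. The correlation of deviations was -0.14 to 0.01 over 9 pairs with the same number. This shows no shared deviation of single genes and cannot show whether such libraries came from the same culture.

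Alternatives were windows of 500 bp and 2 kb, every transcript start, equal numbers of peaks, core genes alone, other summaries and scalings of signal, other genes fitted, a replicate block, and leaving out each replicate. The fit without DP replicate 2 and the ranks without each replicate were added after seeing the data.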

Additional observations from a re-analysis of the deposited data

How the results depend on the processing

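Of 147 alternative values for 18 results, 112 stayed within the replicate spread or within 1.5 times the count. With equal numbers of peaks, the share of ribosomal protein genes with H3K27ac was 38.4% in Oct4+ and 36% in Pdgfra+, H3K27me3 in DP was 1.16% and H3K9me3 in Pdgfra+ was 0%, as it was among core genes alone. Within 2 kb, H3K27me3 in Oct4+ was 0.388%, and H3K9me3 was 3.10% in Oct4+, 2.33% in DP and 3.10% in Pdgfra+. The mean of the median percentiles (60.9, 49.1 and 44.1 in Oct4+, DP and Pdgfra+) was 71.5, 56.5 and 53.6 by total signal and 85.2, 68.0 and 68.7 with genes without a peak ranked at the bottom. The count of genes called between Oct4+ and DP, Oct4+ and Pdgfra+, and DP and Pdgfra+ (56, 72 and 2) was 148, 165 and 0 by total signal, with Rpl11 higher and Rpl7a lower in Oct4+ in both comparisons. It was 0, 0 and 0 by mean signal, 0, 51 and 0 without scaling, and 92, 126 and 0 over 3641 genes with a peak in at least 2 libraries of each population, where Rps19 and Rpl4 were among those called between Oct4+ and Pdgfra+. Quantile normalization gave 4 between DP and Pdgfra+, and a window of 2 kb added Rps19. The cause was not tested. Leaving out replicates gave 0 to 52, 0 to 102 and 0 to 6 calls, with 0 in each comparison without replicate 1, 38, 27 and 0 without replicate 2, and 18 between Oct4+ and DP without DP replicate 2. Without centring, the median of all genes shifted by -0.86 between Oct4+ and DP and by -0.93 between Oct4+ and Pdgfra+.

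With replicate number as a block, 62, 77 and 4 genes were called, and Rpl4 remained the called ribosomal protein gene (adjusted p = 0.00649 in limma). Since the numbers are not known to pair the libraries, this cannot be read as a paired result.

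Sequencing depth is unknown, so its part in the length of the lists was not tested. The H3K27ac share in DP was 68.6% with DP replicate 2 and 85.5% without it.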
